A study of Homo sapiens with 24 samples.

Results

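In LREX' cells given enzalutamide, adding 1 nM dihydrotestosterone (DHT) for 8 h changed no gene past the test, and the genes that DHT moved most on its own stayed close to their level under enzalutamide alone. The comparison takes the 3 arrays labelled as enzalutamide with 1 nM DHT against the 3 labelled as 10 µM enzalutamide, chosen by their treatment labels: 6 of the 24 arrays of the series. LREX' is a human prostate cancer line that grows under enzalutamide, and all results are from this 1 line. All cultures were kept in steroid-depleted medium and harvested after 8 h. The labels give no enzalutamide dose for the combination. Beside these groups stand DHT at 1 nM without enzalutamide, its vehicle control, and dexamethasone at 100 nM given with enzalutamide, each with 3 arrays. The series calls the 3 cultures of a group biological triplicates, and nothing says more about how separate they were.

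DHT is the potent natural androgen. It binds the androgen receptor, which moves to the nucleus, sits on androgen response elements near its target genes and raises or lowers their transcription. Enzalutamide occupies the same binding pocket and keeps the receptor from acting. Dexamethasone is a synthetic ligand of the glucocorticoid receptor, a close relative whose response element is nearly the same and which enzalutamide does not target.

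The kallikrein promoters hold textbook androgen response elements, and KLK2 is shown because its probe was detected with DHT alone and on none of the 6 arrays with enzalutamide. Both sequences are the 250 bases before the gene start, from RefSeq on GRCh38.p14, plus strand, 5′ to 3′, with the letters that match the element in capitals. The element searched is GNACA, then any 4 bases, then GTNC. The KLK2 stretch is chr19:50873189-50873438 and the KLK3 stretch is chr19:50854665-50854914.
KLK2: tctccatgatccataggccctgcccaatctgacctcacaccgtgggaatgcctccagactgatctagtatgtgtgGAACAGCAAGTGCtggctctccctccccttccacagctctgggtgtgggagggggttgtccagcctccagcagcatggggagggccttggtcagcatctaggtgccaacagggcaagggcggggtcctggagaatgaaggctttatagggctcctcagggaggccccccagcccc
KLK3: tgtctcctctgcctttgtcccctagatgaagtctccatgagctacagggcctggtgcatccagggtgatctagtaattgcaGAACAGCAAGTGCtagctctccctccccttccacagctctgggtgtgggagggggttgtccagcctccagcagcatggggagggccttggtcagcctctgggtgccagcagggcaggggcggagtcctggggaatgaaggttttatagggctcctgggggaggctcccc
The match is the same 13 letters in both, GAACAGCAAGTGC, with its first base at position -175 from the KLK2 start and at position -169 from the KLK3 start. The search covered both strands, and the palindromic form, GNACA, 3 bases and TGTNC, is a special case of the same letters. Of 35116 RefSeq promoters of this length, 1.81% held a match, as did 243 of the 10228 tested genes with a promoter in the table (2.38%). Of 120 genes raised at least 1.5-fold by DHT alone that had a promoter there, 2 held it (1.67%), KLK2 and EEF2K. Counted the same way, per gene, the share of tested genes was 2.38%, whereas the 1.81% counts each gene start on its own.

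The arrays of both groups were alike in quality. Median signals ran from 61.7 to 65.8 with enzalutamide and DHT, and from 60.2 to 64.0 with enzalutamide alone. With enzalutamide and DHT, 19923 to 20981 probes were detected per array, with a median of 19 to 21 beads per probe. With enzalutamide alone, 19463 to 21017 were detected, with 18 to 21 beads. Arrays correlated across genes at 0.994 to 0.995 within enzalutamide with DHT, and at 0.994 to 0.995 between it and enzalutamide alone. Of 11 luminal epithelial markers on the array, 7 were detected on all 6 arrays and KRT19, KLK2 and KLK3 on none. Detected on all 6 were also 1 of 5 basal markers (ITGA6), 0 of 6 neuroendocrine markers, 5 of 13 markers of stroma and endothelium (VIM, VWF, ACTA2, TAGLN and COL1A1) and 1 of 7 immune markers (CD68). The basal keratins KRT5, KRT14 and KRT15, the stromal collagen COL3A1, the endothelial CDH5 and the pan-leukocyte gene PTPRC were detected on none. The summed level of the luminal list was 20069 to 21486 with enzalutamide and DHT and 20685 to 22104 with enzalutamide alone. That of the stromal list was 1196 to 1237 with enzalutamide and DHT and 1225 to 1255 with enzalutamide alone, that of the immune list 412 to 434 with enzalutamide and DHT and 430 to 461 with enzalutamide alone, and that of the basal list 166 to 172 with enzalutamide and DHT and 154 to 157 with enzalutamide alone. In the basal and immune lists only ITGA6 and CD68 were detected on all 6 arrays, and the rest of both sums is signal at or near background. In bulk RNA, a change per cell and a change in which cells are present cannot be told apart.

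A gene was called where its Benjamini-Hochberg adjusted p was under 0.05 in a limma fit over all 24 arrays. Between enzalutamide with DHT and enzalutamide alone, 0 of 12895 genes were called (0%), and the lowest adjusted p was 1.00. An unadjusted p under 0.05 was reached by 428 genes (3.32%), 198 higher and 230 lower, fewer than the 645 that an even spread of p-values would give. The median difference was 0.00 on the log2 scale, with a median standard error of 0.12. No gene differed by 2-fold or more, and 25 differed by at least 1.5-fold (0.194%). DHT without enzalutamide, measured on other arrays, called 549 genes against vehicle (4.26%), 316 higher (2.45%) and 233 lower (1.81%), with a lowest adjusted p of 1.06e-15.

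**Figure D1:**
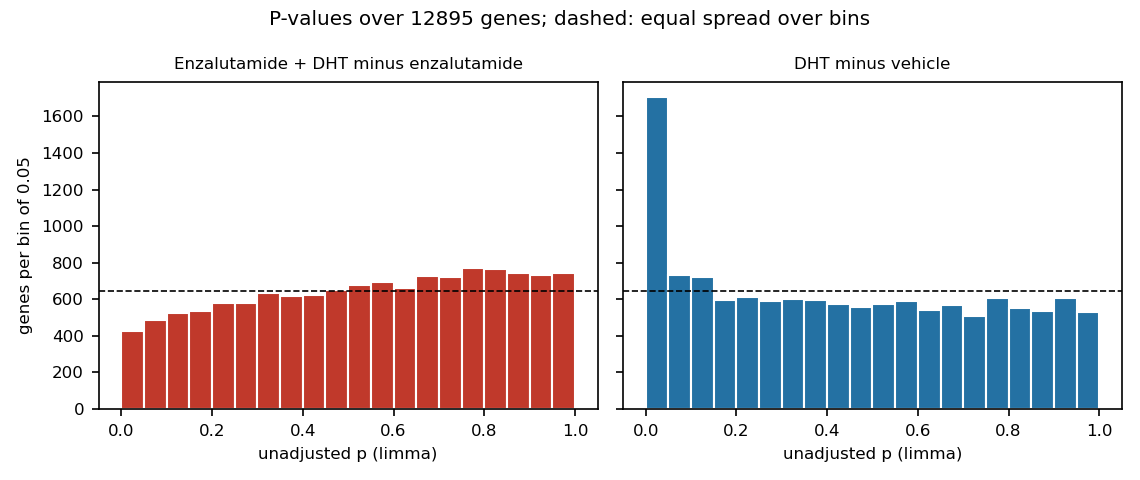
Unadjusted limma p-values (x axis) of 12895 genes in bins of 0.05, with the number of genes in each bin on the y axis, for enzalutamide with DHT against enzalutamide alone and for DHT alone against vehicle; the dashed line is an equal spread over the bins. The lowest bin holds 428 genes with enzalutamide and 1705 without it.

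DHT alone changed 233 genes past the test and by at least 1.5-fold, 160 raised and 73 lowered. The size of that change was measured on arrays other than the 6 compared here. The spread used to call it came from all 24 arrays, these 6 included, which favours genes of small spread. Under enzalutamide, 0 of the 233 were called, 11 had an unadjusted p under 0.05 (4.72%, against 3.32% of all genes), and 9 of these 11 moved the way DHT alone moves them. The residual share, the difference under enzalutamide as a percentage of the log2 response to DHT alone, had a median of 2.58% over the 233 genes, with quartiles of -5.67% and 10.8%. It was 4.71% with the arrays scaled to their median over all probes in place of quantile normalization, and 3.15% over the 195 genes detected on all 6 arrays. It was 2.54% over the raised genes and 2.71% over the lowered ones. The share divides by the DHT response that also chose these genes, which tends to make it smaller in size. The sign matched that of the DHT response for 139 of 233 genes (59.7%).

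Taken 1 array at a time, the median share was 2.18%, 3.75% and 0.963% on the arrays with enzalutamide and DHT. Each array with enzalutamide alone, set against the other 2 of its group, gave -1.66%, 0.459% and 1.21%. On this measure the groups overlap, since the lowest array with DHT lies under the highest without it. The least-squares slope through 0 of the same 233 genes weights large responses more. It was 2.45%, 3.51% and 3.11% with enzalutamide and DHT, against 0.236%, -2.42% and 2.18% with enzalutamide alone, with no overlap. The arrays with DHT share 1 reference, the mean of the 3 with enzalutamide alone, and the latter are set against each other. On either measure the values are therefore not independent, and the lack of overlap for the slope is not a test. The raised genes had a median log2 level, relative to enzalutamide alone, of 0.02, 0.03 and 0.02 with enzalutamide and DHT and of -0.01, -0.01 and 0.03 with enzalutamide alone. With DHT alone, relative to vehicle, the same median was 0.85, 0.87 and 0.85. The lowered genes had -0.03, -0.07 and 0.00 with enzalutamide and DHT, 0.02, -0.06 and 0.04 with enzalutamide alone, and -0.71, -0.70 and -0.72 with DHT alone.

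The genes DHT raised most on its own did not differ past the test once enzalutamide was present. SGK1, a kinase induced by both androgens and glucocorticoids, read 5.85, 5.97 and 5.68 (log2 level) with enzalutamide and DHT, against 5.78, 5.28 and 5.88 with enzalutamide alone. It read 9.34, 9.57 and 9.38 with DHT alone, against 6.10, 5.83 and 5.99 with vehicle. The enzalutamide arrays overlap and the other groups stand far apart. The residual log2 difference of SGK1 was 0.19 ± 0.12 (SE, n = 3 arrays per group, limma adjusted p = 1.00), beside 3.46 ± 0.12 with DHT alone, a residual share of 5.43% with a 95% interval of -1.59% to 12.5%. Its other 2 probes gave residual differences of 0.22 and 0.21. With 1 of the 6 arrays left out, the SGK1 difference ran from 0.00 (without enzalutamide replicate 2) to 0.30 (without enzalutamide replicate 3).

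TMPRSS2, the prostate serine protease whose promoter drives the common ERG fusion, read 7.88, 7.90 and 7.99 with enzalutamide and DHT, against 7.82, 7.76 and 7.91 with enzalutamide alone. DHT alone took it to 10.05, 10.09 and 9.92, against 7.63, 7.72 and 7.81 with vehicle. The enzalutamide groups overlap, and its residual share was 4.13% (-5.57% to 13.9%). FKBP5, a co-chaperone of steroid receptors, had a residual log2 difference of 0.06 ± 0.08 beside 1.45 with DHT alone, a share of 3.86% (-8.08% to 15.9%). KLK4, a kallikrein protease, had 0.06 ± 0.09 beside 1.41. ERRFI1, a feedback inhibitor of the EGF receptor, had -0.01 ± 0.09 beside 2.11, and RASD1, a dexamethasone-induced Ras protein, had -0.07 ± 0.18 beside 3.08. The arrays of both enzalutamide groups overlap for all 5 of these genes, TMPRSS2 to RASD1, and none was called.

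**Figure D2:**
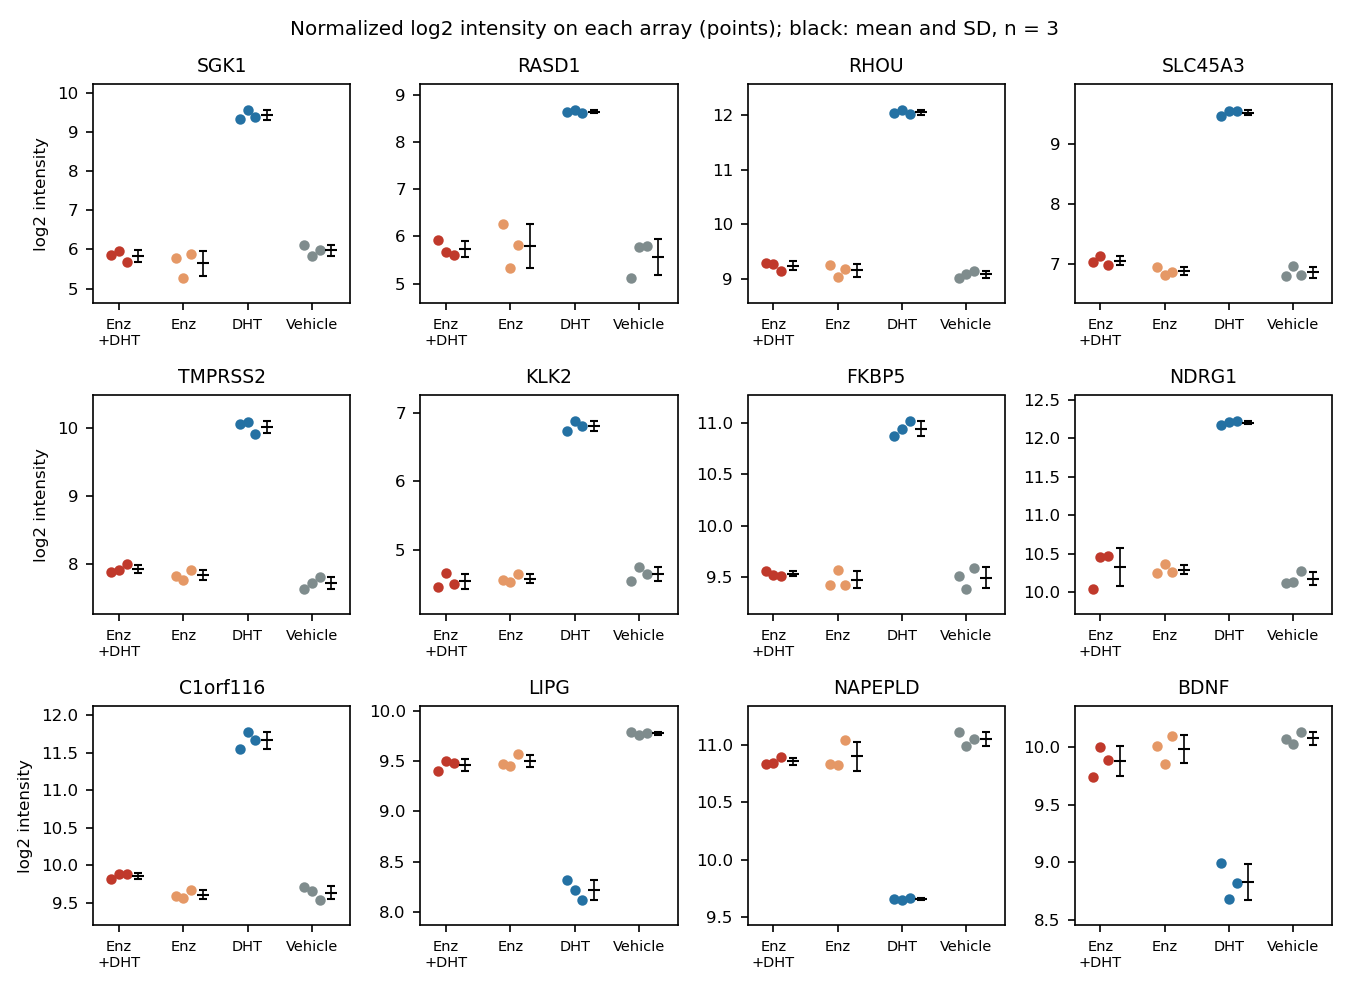
Normalized log2 intensity (y axis) of 9 genes that DHT alone raised and 3 that it lowered, in 1 panel each, for enzalutamide with DHT, enzalutamide alone, DHT alone and vehicle; points are arrays, and the black mark is the mean with its SD. SGK1 lies between 5.68 and 5.97 with enzalutamide and DHT, against 5.28 to 5.88 with enzalutamide alone, and between 9.34 and 9.57 with DHT alone.

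SLC45A3, a prostate solute carrier, was among the genes measured most tightly. It read 7.03, 7.14 and 6.98 with enzalutamide and DHT, against 6.95, 6.82 and 6.86 with enzalutamide alone, and 9.47, 9.55 and 9.54 with DHT alone, against 6.79, 6.95 and 6.82 with vehicle. All 3 arrays with enzalutamide and DHT lie above all 3 with enzalutamide alone. The difference was 0.17 ± 0.07 (limma adjusted p = 1.00), a share of 6.49% (1.26% to 11.8%). C1orf116, known as the specifically androgen-regulated gene, read 9.81, 9.88 and 9.88 with enzalutamide and DHT, against 9.59, 9.56 and 9.67 with enzalutamide alone, again with no overlap. Its difference was 0.25 ± 0.08 (limma adjusted p = 1.00), a share of 12.3% (4.44% to 20.4%), and its other 2 probes gave 0.22 and 0.15. Arrays of the compared groups did not overlap for 15 of the 233 genes (6.44%), against 1004 of all 12895 (7.79%), and such a separation is read against that background.

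**Figure D3:**
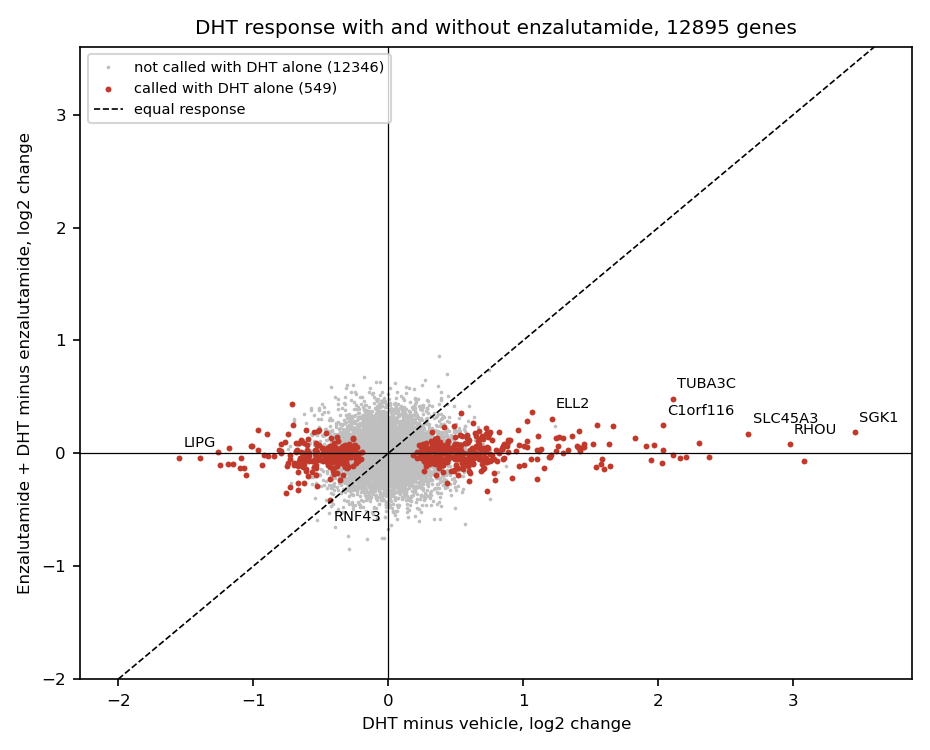
Log2 difference of enzalutamide with DHT against enzalutamide alone (y axis) set against the log2 difference of DHT alone against vehicle (x axis), 1 point per gene; the 549 genes called with DHT alone are in red and the dashed line is an equal response. SGK1 lies at 0.19 on the y axis and 3.46 on the x axis, and the 233 genes DHT changed at least 1.5-fold lie along the level of no change; their least-squares slope through 0 is 3.02%.

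Of the 15 genes with the largest rises under DHT alone, KLK2 and SNAI2 were detected on none of the 6 enzalutamide arrays, so no fold is given between those groups. KLK2, a prostate kallikrein, read 4.45, 4.66 and 4.50 with enzalutamide and DHT, against 6.74, 6.89 and 6.80 with DHT alone, at least 3.48-fold lower. SNAI2, a zinc-finger repressor of epithelial genes, was at least 2.66-fold lower on the same comparison, and ZBTB16, a transcription factor induced by both steroid classes, at least 2.94-fold. With DHT alone the ZBTB16 probe used changed by 1.91, and its other probes by 1.05 and -0.02. In all, 15 of the 160 raised genes were detected on none of the 6 arrays; the others include the acute-phase proteins ORM1 and ORM2, near-identical copies whose probes may share transcripts, the glucose transporter SLC2A3 and the natriuretic peptide NPPC. KLK3, which encodes prostate-specific antigen, was also undetected on the 6 arrays and was detected on 2 of 3 arrays with DHT alone, where its change was not called (limma adjusted p = 0.223). At the level of single probes, 55 were detected on all 3 arrays with enzalutamide and DHT and on none with enzalutamide alone, and 42 the other way (0.205% of 47323 together). For DHT alone against vehicle the same counts were 61 and 58 (0.251% together), a share not far from that under enzalutamide. Of those 61 probes, 4 were detected on all 3 arrays with enzalutamide and DHT, and 3 on all 3 with enzalutamide alone. The 61 were picked by their detection on the DHT and vehicle arrays, so these counts are a description.

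Genes that DHT alone lowered were not called under enzalutamide either. LIPG, a secreted lipase, read 9.40, 9.50 and 9.49 with enzalutamide and DHT, against 9.47, 9.45 and 9.57 with enzalutamide alone, and 8.33, 8.23 and 8.12 with DHT alone, against 9.79, 9.75 and 9.78 with vehicle. The residual difference was -0.04 ± 0.07 beside -1.55 with DHT alone, a share of 2.43% (-7.28% to 12.2%). NAPEPLD, a phospholipase that makes N-acylethanolamines, had -0.04 ± 0.08 beside -1.39, and BDNF, a neurotrophin, had -0.11 ± 0.09 beside -1.25. SYTL2, a vesicle-trafficking protein, had 0.01 ± 0.09 beside -1.26. Its other probes had residual differences of 0.12 and 0.33 beside DHT changes of only -0.08 and -0.57, so the SYTL2 probes disagree. BAMBI, a decoy receptor of the TGF-beta family, read 11.80, 11.84 and 11.79 with enzalutamide and DHT, each under the 11.84, 11.85 and 11.86 with enzalutamide alone, though its difference was only -0.04 ± 0.09 beside -1.09. NR3C1, which encodes the glucocorticoid receptor, had 0.06 ± 0.19 beside -1.01 (limma adjusted p = 0.00205 with DHT alone). Its other probe had a DHT change of only -0.07, so the NR3C1 probes disagree. None of the 10 largest falls had a residual share whose interval left 0.

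Testing the difference itself, (enzalutamide with DHT minus enzalutamide) minus (DHT minus vehicle), called 233 genes (1.81%), and 226 of them were among the 549 DHT genes. This set is not the 233 genes that DHT alone changed at least 1.5-fold, though equal in number. The sets share 160 genes, 118 raised and 42 lowered by DHT alone. All 226 had the smaller response under enzalutamide. This test shares the DHT and vehicle arrays with the one that called the 549 genes, which favours that overlap and that direction. SLC45A3 had the lowest adjusted p, at -2.49 ± 0.09 (adjusted p = 2.40e-12), and SGK1 differed by -3.27 ± 0.16 (adjusted p = 1.40e-10). For the 73 of the 233 DHT genes that this test did not call, a smaller response under enzalutamide was not shown one by one.

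The intervals set upper bounds on what DHT can still do. Over all genes, the end of the 95% interval farthest from no change lay within 1.5-fold for 11044 genes (85.6%) and within 2-fold for 12823 (99.4%). Of the 503 DHT genes detected on all 6 arrays, 495 were bounded within 1.5-fold (98.4%) and all 503 within 2-fold. Of all 10247 genes detected on all 6 arrays, 92.7% lay within 1.5-fold and 99.8% within 2-fold. The DHT genes had a smaller median standard error, 0.088 against 0.101 for the 10247, which narrows their bounds. With intervals widened for 549 genes at once (Bonferroni), 491 of the 503 lay within 2-fold. The widest bounds of all belonged to MIR1282 at 2.69-fold and KDM7A-DT at 2.66-fold, each undetected on some of the 6 arrays. On this scale an offset of 16 was added to each signal, which shrinks folds of dim genes.

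**Figure D4:**
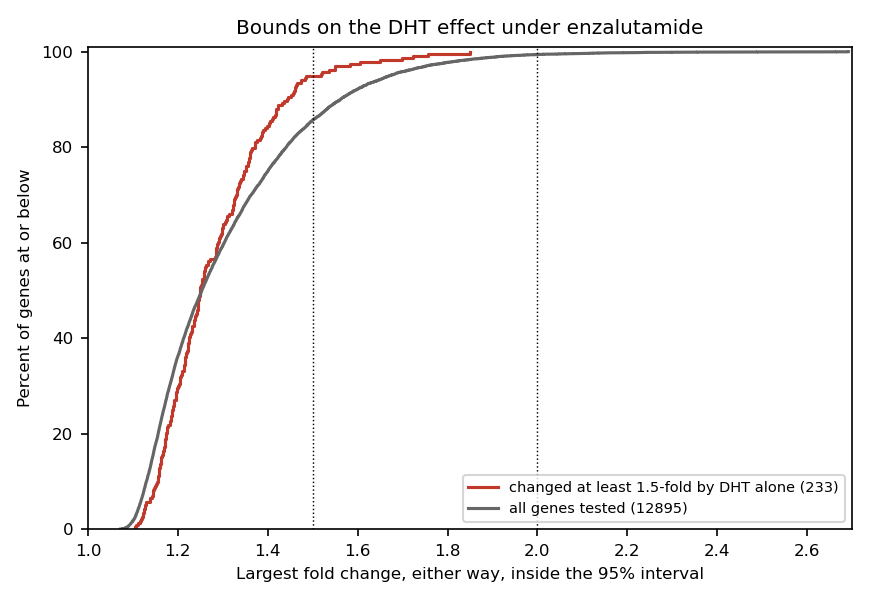
Cumulative percentage of genes (y axis) whose 95% interval for enzalutamide with DHT against enzalutamide alone lies within the fold on the x axis, for the 233 genes DHT alone changed at least 1.5-fold and for all genes. At 1.5-fold, 221 of the 233 genes and 85.6% of all genes lie within, and at 2-fold all 233 do; 195 of the 233 were detected on all 6 arrays.

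As a share of each gene's own response, the upper limit can be read for genes detected on all 6 arrays; the residual of a gene undetected on all of them is near 0 by construction. Of the 195 such genes among the 233, the limit was under 10% for 13, under 25% for 77, under 50% for 156 and under 100% for 188. The median upper limit was 30.8%. These limits rest on the DHT response that also chose the genes, so they tend to be low. Relative precision grew with the size of the response. For the 10 of them that DHT raised at least 4-fold, the median residual share was 2.22% and the median upper limit 10.5%, with all 10 limits under 25%. For the 34 raised 2-fold to 4-fold these medians were 3.81% and 22.9%, and for the 84 raised 1.5-fold to 2-fold they were 2.87% and 34.5%. For the 13 lowered 2-fold to 4-fold they were 3.77% and 29.6%, and for the 54 lowered 1.5-fold to 2-fold 2.38% and 42.0%. A small residual response cannot be told from none in most of the weaker DHT genes at this precision. The 95% interval lay wholly above 0 for 8 of the 195 genes and wholly below 0 for 1. By an unadjusted limma p under 0.05 that is 4.62% of the 195, against 2.54% of the 10247 genes detected on all 6 arrays. No test over genes was made.

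**Figure D5:**
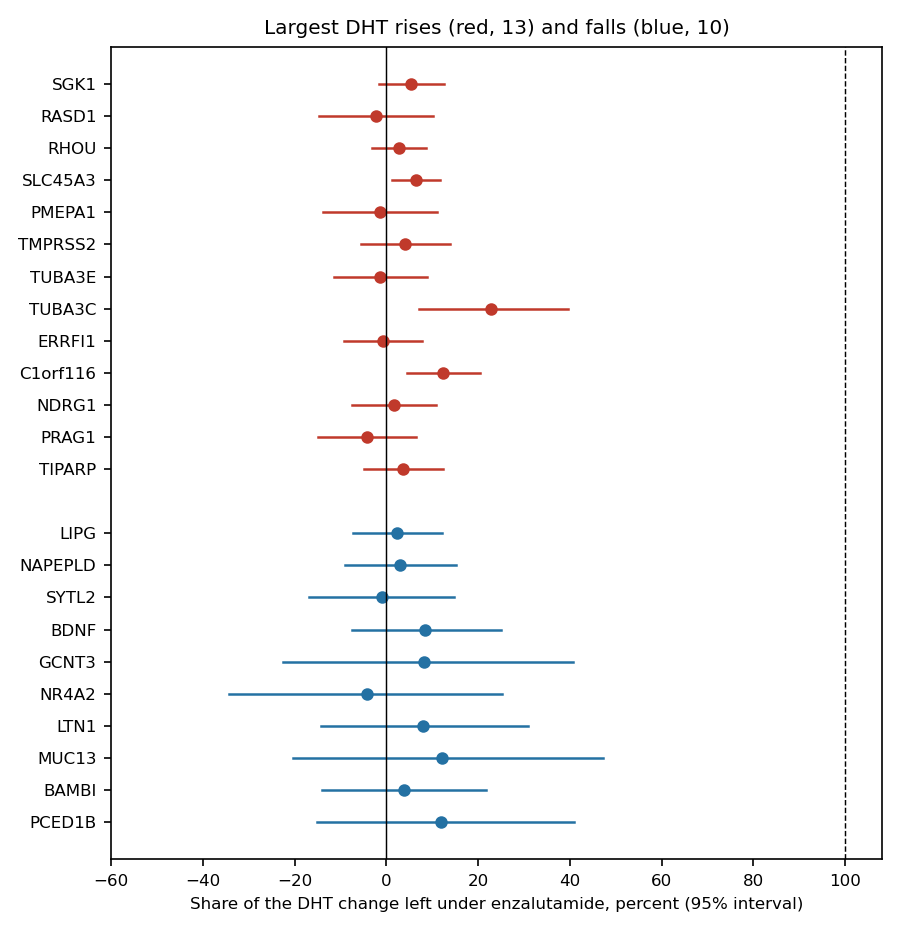
Residual share of the DHT response, in percent (x axis), with its 95% interval, for the 13 detected genes among the 15 that DHT alone raised most and for the 10 it lowered most; KLK2 and SNAI2, detected on none of the 6 enzalutamide arrays, are not drawn. SGK1 lies at 5.43%, SLC45A3 at 6.49% and LIPG at 2.43%, all far from the dashed line at 100% that marks an equal response.

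The genes with the smallest unadjusted p in the direction of DHT were PAG1, C1orf116, TUBA3C, CEBPD and ELL2; they were picked by that p, so their values are a description. CEBPD, a transcription factor of the C/EBP family, read 9.01, 8.86 and 9.09 with enzalutamide and DHT, against 8.90, 8.61 and 8.69 with enzalutamide alone. Its difference was 0.25 ± 0.09 beside 1.54 with DHT alone, a share of 16.4% (4.80% to 28.5%), and 1 array of enzalutamide alone lies among those with DHT. ELL2, a transcription elongation factor, read 7.31, 7.26 and 7.06 with enzalutamide and DHT, against 7.21, 6.80 and 6.71 with enzalutamide alone, with a share of 25.2% (6.70% to 45.6%). Here too the first array of enzalutamide alone falls within the range of the other group.

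TUBA3C, an alpha-tubulin, read 5.51, 5.69 and 5.87 with enzalutamide and DHT, against 5.72, 4.93 and 4.97 with enzalutamide alone, where it was detected on 1 of 3 arrays. Its share of 22.9% (7.20% to 39.7%) is uncertain because near-identical tubulin genes may share its probe, and the probe of its paralog TUBA3E gave -1.28%. PAG1, a membrane adaptor that recruits the kinase Csk, read 7.54, 7.73 and 7.84 with enzalutamide and DHT, each under the 7.97, 8.00 and 8.11 with enzalutamide alone. This is the highest share of the 233 genes, 48.2% (18.1% to 87.5%), yet its other 2 probes gave residual differences of 0.04 and 0.19, opposite in sign, while all 3 PAG1 probes were lower with DHT alone. The probes of PAG1 therefore disagree on the residual.

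In the opposite direction the smallest unadjusted p-values belonged to MPP7, NFIL3, PTGER4, KCNRG and TNFAIP8. NFIL3, a basic leucine zipper repressor, read 8.43, 8.41 and 8.35 with enzalutamide and DHT, each under the 8.50, 8.54 and 8.66 with enzalutamide alone, whereas DHT alone raised it by 0.61. MPP7, a membrane scaffold, was detected on 2 of 3 arrays with enzalutamide and DHT and on none with enzalutamide alone, at least 1.04-fold higher. PTGER4, KCNRG and TNFAIP8 did not reach an unadjusted p under 0.05. Of the 549 DHT genes, 22 reached it (4.01%, against 3.32% of all genes), 18 in the direction of DHT alone and 4 in the opposite one.

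Outside the 233 genes, RNF43, called with DHT alone at under 1.5-fold, and GADD45B, changed more but not called, had residual differences as large as their differences with DHT alone. RNF43, a ubiquitin ligase that removes Wnt receptors, read 6.49, 6.19 and 6.73 with enzalutamide and DHT, each under the 6.86, 6.79 and 7.0 with enzalutamide alone. Its difference was -0.41 ± 0.11 (limma adjusted p = 1.00), beside -0.43 ± 0.11 with DHT alone (adjusted p = 0.0232). That is a share of 95.2% with an interval from 39.1% to 223%, the highest of the 549. GADD45B, a stress-response gene also induced by glucocorticoids, read 6.39, 6.09 and 6.39 with enzalutamide and DHT, against 5.43, 5.61 and 5.61 with enzalutamide alone. It read 6.0, 6.34 and 6.0 with DHT alone, against 5.03, 5.53 and 5.56 with vehicle. GADD45B was higher on every DHT array than on any array of its control, with differences of 0.74 ± 0.22 in both settings, but neither passed the test (limma adjusted p = 1.00 with enzalutamide and 0.0698 without).

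Over the whole table, the genes with the smallest unadjusted p included several near the detection limit. On the higher side these were ZNF404, BNIPL, CXorf49, USP26 and BNIP1, and on the lower side FZR1, RNF43, APOL2, ITIH2 and PELI2. ZNF404, a zinc-finger gene, read 5.02, 5.38 and 5.60 with enzalutamide and DHT, where it was detected on 3 of 3 arrays, against 4.68, 4.72 and 4.85 with enzalutamide alone, where it was detected on none. It was at least 1.24-fold higher (limma adjusted p = 1.00), and it was detected on no array with DHT alone or vehicle. USP26 was detected on 2 of 3 arrays with enzalutamide and DHT and on none with enzalutamide alone, and ITIH2 on none with enzalutamide and DHT and on 2 of 3 with enzalutamide alone. Of these 10 genes, RNF43 was called with DHT alone and none of the others was.

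By gene group, no list held a called gene, as no gene of the table was called; counts at an unadjusted p stand beside 3.32% of all genes, and counts with DHT alone beside 2.45% raised and 1.81% lowered of all genes. Of 39 measured androgen-induced genes, 0 were called under enzalutamide, 3 had an unadjusted p under 0.05, all higher (C1orf116, ELL2 and SLC45A3), and the median difference was 0.05. DHT alone raised 23 of these 39, lowered 1, and gave a median of 0.67. Of 20 androgen-repressed genes, 0 were called and the median was -0.01, where DHT alone lowered 10 and gave a median of -0.27. Of 29 glucocorticoid-induced genes, 0 were called, 2 had an unadjusted p under 0.05 (GADD45B and CEBPD, both higher) and the median was 0.02, where DHT alone raised 13, lowered 1 and gave a median of 0.33. Over all 12895 genes the medians were 0.00 under enzalutamide and -0.01 with DHT alone.

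Lists of metabolism, protein folding and growth held no called gene. Of 19 genes of sterol and fatty acid synthesis, 22 of nutrient uptake and glycolysis, 10 of polyamine synthesis and 22 of endoplasmic reticulum folding, 0 were called under enzalutamide. Their median differences were 0.01, 0.02, -0.01 and 0.04. The glucose transporter SLC2A12 had 0.19 ± 0.12 beside 1.41 with DHT alone. Of 23 S phase genes and 26 mitosis genes 0 were called, with medians of 0.00 and -0.03. The receptor and cofactor list had 0 of 18 called, and PIAS1, a SUMO ligase that binds the androgen receptor, had 0.17 ± 0.09 beside 0.53 with DHT alone.

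The enzalutamide-treated cells still answered another steroid. Dexamethasone at 100 nM under enzalutamide called 439 genes against enzalutamide alone (3.40%), 287 higher and 152 lower. It shares the enzalutamide arrays with the DHT comparison, so the values of both are given side by side. SGK1 had 0.19 with DHT and 6.35 with dexamethasone. FKBP5 had 0.06 with DHT and 2.02 with dexamethasone, while TMPRSS2 had 0.10 with DHT and 0.91 with dexamethasone. SLC45A3 had 0.17 with DHT and 1.86 with dexamethasone. Of the 160 genes raised by DHT alone, dexamethasone under enzalutamide raised 98 and lowered 0, and of the 73 lowered it lowered 26 and raised 1. The median share of the DHT response on its 3 arrays was 57.2%, 57.7% and 57.5%. Enzalutamide alone called 2 genes against vehicle (0.0155%). Its median difference against vehicle was 0.02 over the 160 raised genes and -0.14 over the 73 lowered ones, a comparison that shares the vehicle arrays with the one that chose these genes.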

How the data were processed

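Expression was measured on 24 arrays of an Illumina expression beadchip platform, 3 for each of 8 treatments, grouped by treatment labels. The deposited signal intensity of a probe is the mean over its beads, with no scaling across arrays, per the file headers. Each detection p-value, as deposited, ranks that signal among the array's own negative control beads, per the file headers. GenomeStudio is named in the submitters' processing notes, with no version given in the sources used here. The authors' normalized intensity values, deposited with no method stated, served as an alternative.

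Signals were corrected by normexp with an offset of 16, quantile normalized and converted to log2 values (limma 3.58.1, R 4.3.3). The fit kept 24607 of 47323 probes, those detected (p under 0.05) on 3 or more of the 24 arrays. The platform annotation gave 1 gene symbol for 30113 probes, several for 8 and none for 17202, and 30074 matched RefSeq by Entrez identifier. Each gene took its brightest probe (12895 genes, 3586 of them with several kept probes). The 8 group means were fitted to all arrays with lmFit and eBayes, with Benjamini-Hochberg adjustment over all genes of a comparison, and a gene was called at an adjusted p under 0.05. Values after ± are standard errors, and all p-values of genes are limma's. They rest on 1 moderated estimate of spread per gene, from the differences between cultures within each of the 8 groups. Residual shares have Fieller intervals at 95%, covering both the residual and the DHT response. Where a gene was detected on no array of a group, the lowest detected signal of each array, or the probe's own if higher, stood in for its level ("at least"). Sequences came from RefSeq on GRCh38.p14. The fit was tested on simulated data.

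The members, gene lists and tests were chosen with earlier results of these data known. Named genes are the 5 of smallest unadjusted p in each direction, the 15 largest rises and 10 largest falls with DHT alone among called genes with no overlap of arrays, a fixed set of steroid response genes, the 5 DHT genes of smallest p in either direction, and up to 4 members of each list. Not every named gene is described. Serial numbers in the labels form sets across groups, and the labels do not say what a set is. Deviations of same-numbered arrays with enzalutamide and DHT and with enzalutamide alone correlated at 0.160, 0.0250 and 0.128. The main fit did not treat them as pairs, and a fit with the sets as a block is given below.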

Additional observations from a re-analysis of the deposited data

Results flagged for a closer look

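The DHT response differed with enzalutamide for 233 genes in the test of the difference itself, and 160 of these were changed at least 1.5-fold by DHT alone. Of the 233, 7 were not called with DHT alone: BNIP1, C9orf152, FMO4, PDGFB, SLAMF7, ZNF404 and ZNF512, named after their values were seen.

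BNIP1, a SNARE protein of the endoplasmic reticulum, had a difference of responses of 0.48 ± 0.11 (limma adjusted p = 0.0229). It read 7.80, 7.62 and 7.67 with enzalutamide and DHT, against 7.41, 7.43 and 7.37 with enzalutamide alone, and 7.58, 7.51 and 7.51 with DHT alone, against 7.70, 7.64 and 7.81 with vehicle. ZNF404 was detected on all 3 arrays with enzalutamide and DHT and on none of the other 9 arrays of these 4 groups. The fitted difference of its responses, 0.72, therefore sets measured levels against undetected ones and is not an exact size, and its response to DHT alone has no direction.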

How the results depend on the processing

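With 3 arrays per group, each a single culture, small changes lie within most intervals, and probes undetected on the enzalutamide arrays give no fold there. Under each of 13 other settings, 0 genes were called between enzalutamide with DHT and enzalutamide alone. Leaving out 1 array gave 0 to 2 called genes: POU2F3 (0.79, adjusted p = 0.0246) and ZNF404 (0.74, adjusted p = 0.0323) without enzalutamide with DHT replicate 1, and KDM7A-DT (1.37, adjusted p = 2.55e-04) without replicate 2 of that group. The cause was not tested. Residual calls among the genes called with DHT alone numbered 0 in these settings and 0 with any 1 array left out.

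The median residual share ran from 2.43% to 4.71%, the highest with median scaling over all probes, which also gave 149 genes whose responses differ and 288 called with dexamethasone, split the DHT genes into 206 higher and 234 lower, and shifted the median of all genes by 0.03. Leaving out 1 array gave 2.32% to 3.79%. Genes whose responses differ numbered up to 279, and 182 to 206 with 1 array left out. Fitted without the other groups, which leaves fewer arrays to estimate the spread, DHT alone called 290 genes and dexamethasone under enzalutamide 168. With all 8 groups kept and 1 array left out, DHT alone called 406 to 440 genes and dexamethasone under enzalutamide 305 to 352.

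Genes bounded within 1.5-fold numbered 18021 with no detection filter and 19463 with every kept probe on its own, since more were tested, and 10173 to 10266 with 1 array left out. As a share they were 99.6% with no background correction, 75% with the deposited normalized values and 78.9% to 79.6% without 1 of the 6 arrays compared, against 85.6%. Limited to genes detected on all 6 arrays, a setting added after seeing the data, the median share was 3.15%. The 2 genes called for enzalutamide alone became 1 with a trended robust fit and with genes detected on all 6 arrays, 0 to 2 with 1 array left out, and 0 with no background correction, an offset of 50, median scaling over detected probes, the deposited values, no filter, a detection p under 0.01, every probe, only the arrays compared, array weights or the replicate block.

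With the replicate block, the sets of serial numbers, 0 genes were called between enzalutamide with DHT and enzalutamide alone, 509 had an unadjusted p under 0.05 and the lowest adjusted p was 0.928. This fit called 621 genes with DHT alone. Under enzalutamide, 27 of them had an unadjusted limma p under 0.05 in the direction of DHT and 6 in the opposite one. The main fit had 18 and 4 of its 549. Of the 24 arrays, 20 correlated best with their own set, among them 5 of the 6 compared, a hint from the data and not from the design. Of the values of named genes, 2166 kept their side of the threshold and moved little, 37 moved by more than the spread between arrays and 1, ZNF404 as above, passed the test. The slide as a block was not run, because the files give no slides.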

Other observations

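Further gene groups were measured under enzalutamide. Counts with DHT alone stand beside 2.45% raised and 1.81% lowered of all genes. Of 16 measured interferon-response genes, 0 were called with DHT under enzalutamide, and the median difference was 0.01. IFIT3, an interferon-induced antiviral protein, had 0.30 ± 0.28 and OAS1 0.19 ± 0.16. The other probe of each gene gave a value opposite in sign, -0.26 for IFIT3 and -0.10 for OAS1. Of 17 clock genes, 0 were called and the median was -0.05, with NFIL3 the 1 gene at an unadjusted p under 0.05. DHT alone raised 3 of the 17. Of 18 heat shock and p53 genes, 0 were called and the median was 0.02, with CDKN1A, the p21 cell cycle inhibitor, at 0.13 ± 0.09. Of 17 immediate early and MAPK feedback genes, 0 were called, with a median of -0.01, where DHT alone raised 4 and lowered 2. ATF3 had -0.15 ± 0.09 with DHT under enzalutamide, and DHT alone raised it by 0.49 (limma adjusted p = 0.00295). Of 13 steroid metabolism genes, 0 were called, and HSD11B2, which inactivates cortisol, had 0.07 ± 0.07 and was raised by 0.33 with DHT alone (limma adjusted p = 0.00956).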
